A study of Mus musculus with 2 samples.

Results

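The BMP and TGF-beta pathway was examined in central nervous system tissue of mouse embryos through 43 genes taken from a fixed list by symbol: 15 ligands, 10 receptors, 8 Smads, 6 antagonists and the 4 Id genes. All 43 were found, each with 1 identifier, among the 43346 genes of the deposited tables. The tissue came from C57BL/6J embryos at embryonic day 14, and no group carried a genetic change or a treatment. There was 1 group with 2 biological replicates, each made from littermates of both sexes pooled together, so the replicate spread given here is between 2 pools of embryos. The libraries, stranded and sequenced from both ends, came from poly(A)+ RNA and held 102727538 and 138440954 expected counts (estimated read counts per gene). With 1 group there was no contrast between conditions, so gene groups were compared within the tissue and the replicates with each other, without a p-value.

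BMPs, activins, growth and differentiation factors and TGF-betas are secreted dimers that bring type II receptor kinases together with type I receptor kinases. The type I receptors of BMPs phosphorylate Smad1, Smad5 and Smad9, those of activins and TGF-betas phosphorylate Smad2 and Smad3, and both kinds of Smad enter the nucleus with Smad4. In the neural tube, BMPs from the roof plate pattern dorsal cell types, and secreted antagonists such as noggin and chordin bind BMPs and keep them from their receptors. The Id genes encode helix-loop-helix proteins that lack a DNA-binding domain, hold back neuronal differentiation by binding E proteins, and are known transcriptional targets of BMP signalling.

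The Id targets were the most abundant group, and the ligands and antagonists had the lowest medians. Levels are given in TPM (the usual transcript abundance, corrected for transcript length), and 38 of the 43 genes reached 1 TPM in both replicates, against 63.4% of 21474 protein-coding genes. The median level was 124 ± 5.81 TPM for the Id genes (SD, n = 2), 27.8 ± 0.788 TPM for the Smads, 16.1 ± 1.36 TPM for the receptors, 5.76 ± 1.10 TPM for the antagonists and 4.62 ± 2.12 TPM for the ligands. On the log2(TPM + 1) scale, the Id median lay above the ligand median by 4.09 in replicate 1 and 4.96 in replicate 2 (4.53 ± 0.62, SD, n = 2), the Smad median by 1.95 and 2.64 (2.29 ± 0.49) and the receptor median by 1.33 and 1.97 (1.65 ± 0.45). Each of these differences exceeded its SD, and most of the SD came from the ligands, whose median was 6.12 TPM in replicate 1 and 3.12 TPM in replicate 2. The antagonist median was above that of the ligands by 0.06 and 0.45 (0.25 ± 0.28), a difference within the spread between replicates, and it lay below it (difference -0.065) once the 3 ligands with few counts were left out. The mm9 RPKM gave smaller differences for receptors (0.68) and Smads (1.29), in the same direction. Here too 1 was added before the logarithm, to values lower than the TPM (Acvr1b 6.18 RPKM against a mean of 51.8 TPM). That shrinks differences by construction, and its part in the smaller values was not tested.

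**Figure D1:**
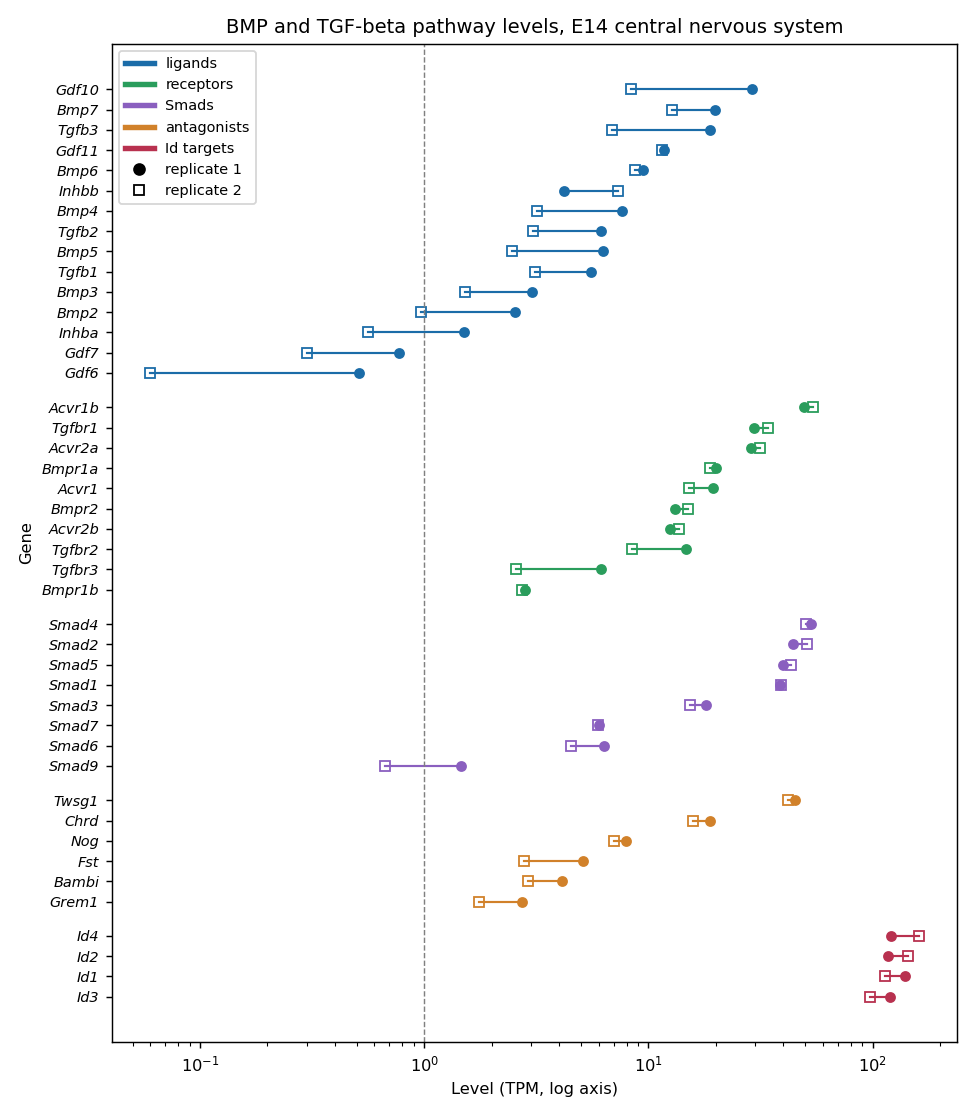
Level in TPM (log axis) of each of the 43 genes, ordered by mean within ligands, receptors, Smads, antagonists and Id targets; filled circles are replicate 1, open squares replicate 2, and the dashed line marks 1 TPM. The 4 Id genes stand highest, between 97.8 and 161 TPM, and most ligands are drawn with replicate 2 to the left of replicate 1.

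Among the BMP ligands, Bmp7, a broadly expressed BMP of the kidney, eye and dorsal midline, was the most abundant at 19.8 TPM in replicate 1 and 12.7 TPM in replicate 2. It made up 39.6% and 42.4% of the summed level of the 8 BMP-type ligands, which was 50.04 and 29.9 TPM. Bmp6 was at 9.50 and 8.73 TPM, and its exons overlap those of Txndc5 on the opposite strand, a gene at 62.3 TPM, so its value depends on whether strand was used in counting, which is not given. Bmp4, a roof plate and dorsal midline signal, was at 7.66 and 3.18 TPM. Bmp5 was at 6.25 and 2.47 TPM. Bmp3, an atypical family member that opposes osteogenic BMPs, was at 3.02 and 1.52 TPM, and Bmp2 at 2.53 and 0.970 TPM. The counting intervals of the replicates overlapped for Bmp6 and for none of the other 5 BMP genes, which were higher in replicate 1. At this depth small differences also part the intervals, as for the receptor Acvr1b at a log2 ratio of replicate 2 to replicate 1 of 0.13. The share of all genes with intervals apart was not counted, so this is no trait of the BMP genes.

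The roof plate ligands Gdf6 and Gdf7 were the scarcest of the 43. Gdf7, needed in the roof plate for dorsal interneurons, had 59 and 31 counts, or 0.593 (exact Poisson 95% interval 0.451 to 0.765) and 0.230 (0.156 to 0.327) CPM, that is counts scaled to the same library total. Gdf6 had 107 and 16 counts, or 1.08 (0.881 to 1.30) and 0.119 (0.0679 to 0.193) CPM. The intervals of the replicates did not overlap for either gene. These intervals cover counting error only, and the share of all genes with intervals apart was not counted.

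Gdf10, a growth and differentiation factor close in sequence to Bmp3, had the highest mean of the 15 ligands. Its gap was wide, with 29.0 TPM in replicate 1 and 8.33 TPM in replicate 2. Gdf11, which limits neurogenesis and sets regional identity along the cord, was nearly level at 11.7 and 11.5 TPM. It was the fourth ligand by level in replicate 1 and the second in replicate 2, after Bmp7. Of the activin subunits, Inhbb was at 4.22 and 7.34 TPM and Inhba at 1.51 and 0.560 TPM, so that Inhbb took 73.6% and 92.9% of their sum. Tgfb3 was the highest TGF-beta at 18.8 and 6.89 TPM, followed by Tgfb2 at 6.12 and 3.06 TPM and Tgfb1 at 5.54 and 3.12 TPM. In the order of mean levels, 3 of the 14 neighbouring pairs of ligands had ranges that did not overlap: Gdf11 above Bmp6, Bmp6 above Inhbb, and Tgfb1 above Bmp3.

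All 10 receptors were detected, and among them the type I receptors of activin and TGF-beta exceeded those of BMPs. Acvr1b, the activin type I receptor ALK4, was highest at 49.5 and 54.1 TPM. Tgfbr1, the TGF-beta type I receptor ALK5, was at 29.6 and 34.1 TPM. The BMP type I receptors were lower, with Bmpr1a at 20.0 and 18.9 TPM, Acvr1 at 19.4 and 15.2 TPM and Bmpr1b, at 2.82 and 2.73 TPM, the least abundant receptor by mean. Summed, Acvr1b and Tgfbr1 exceeded the 3 BMP type I receptors 1.87-fold in replicate 1 and 2.40-fold in replicate 2 (log2 1.08 ± 0.25, SD, n = 2).

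Of the type II receptors, Acvr2a, which binds activins and several BMPs, was highest at 28.6 and 31.5 TPM; its exons overlap those of Orc4, at 63.1 TPM on the opposite strand. Bmpr2 was at 13.2 and 15.0 TPM, Acvr2b at 12.6 and 13.7 TPM, and Tgfbr2, the type II receptor of TGF-betas, at 14.7 and 8.45 TPM. Tgfbr3, the betaglycan co-receptor that presents TGF-beta2 to Tgfbr2, was at 6.18 and 2.56 TPM. Type I receptors together exceeded type II receptors 1.76-fold and 1.82-fold, with 121 and 125 TPM against 69.0 and 68.7 TPM. The sum over all 10 receptors was 196.6 and 196.3 TPM, which differed between replicates far less than the sum over the 15 ligands, 127 and 70.7 TPM.

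Of the 8 Smads, Smad4, Smad2, Smad5 and Smad1 had mean levels between those of Tgfbr1 and Acvr1b, and the other four were lower. Smad4, the shared partner, was at 53.1 and 50.3 TPM, and Smad2 at 44.2 and 50.9 TPM; their order differed between replicates. Of the BMP Smads, Smad5 was at 39.97 and 43.4 TPM, Smad1 at 38.6 and 39.0 TPM, and Smad9, known as Smad8, at only 1.46 and 0.670 TPM. Smad3 was at 18.1 and 15.4 TPM, so that Smad2 made up 71.0% and 76.8% of the pair. BMP Smads together exceeded Smad2 and Smad3 1.28-fold and 1.25-fold in TPM (log2 0.34 ± 0.02, SD, n = 2). That SD covers the replicates only. By mean mm9 RPKM, Smad5 stood highest at 9.56, above Smad4 (6.35), Smad1 (4.87), Smad2 (4.59), Smad3 (1.83) and Smad9 (0.141). The order of the Smads and this ratio therefore depend on the measure. Of the Smad4 level in TPM, 32.7% and 25.3% was given to Smad4-204, annotated as not coding. The inhibitory Smads, which are induced by the pathway and block its receptors, were low: Smad7 was at 6.03 and 5.96 TPM and Smad6 at 6.32 and 4.51 TPM.

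Among the antagonists, Twsg1, which binds BMPs together with chordin, held 53.9% and 58.0% of the group's sum at 45.2 and 41.8 TPM. Chrd, encoding chordin, was at 18.8 and 15.8 TPM, with exons that overlap those of Thpo on the opposite strand (2.70 TPM), and Nog, encoding noggin, at 7.94 and 7.04 TPM. Lower still were Fst, the activin-binding follistatin, at 5.13 and 2.78 TPM, Bambi, a receptor-like protein without a kinase, at 4.13 and 2.92 TPM, and Grem1 at 2.73 and 1.75 TPM. The 6 antagonists summed to 84.0 and 72.1 TPM, which was 1.68-fold and 2.41-fold the sum of the 8 BMP-type ligands. This excess rests largely on Twsg1 alone, and the 6 are not all specific to BMPs, since Fst binds activin. Of the 5 neighbouring pairs, only Fst and Bambi had overlapping ranges.

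The 4 Id genes were each at or above the level of 93.4% of protein-coding genes by mean level, yet their order was not the same in the replicates. Id1 was at 140 TPM in replicate 1 and 113 TPM in replicate 2, and Id3 at 120 and 97.8 TPM. Id2 was at 118 and 144 TPM, and Id4 at 121 and 161 TPM. Id1 and Id3 were thus lower in replicate 2 and Id2 and Id4 higher. The genes lie apart, on mm10 at chr2:152736251-152737410 (Id1), chr12:25093799-25097140 (Id2), chr4:136143497-136145755 (Id3) and chr13:48261228-48266026 (Id4). Summed, Id1 and Id3 were 1.09-fold Id2 and Id4 in replicate 1 and 0.692-fold in replicate 2, while the sum of all 4 was 498 and 516 TPM, or 2.40-fold and 2.46-fold that of the 8 Smads.

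Promoter windows were searched for 2 short sequences that Smad proteins are known to bind, GGCGCC (bound by BMP Smads, its own reverse complement) and GTCT (bound by Smad3 and Smad4, searched on both strands). RefSeq promoter windows of 250 bases before the start (GRCm38.p6) matched 30 of the 43 genes, among them Id2, Id3 and Id4. These windows precede the RefSeq start. The GENCODE M21 models begin further upstream for Id2 and Id3, but further downstream for Id4, at 48261228. By these models the Id3 window lay wholly within exons (250 of 250 bases) and the Id2 window in part (161 bases). The Id4 window held 0 exon bases. GGCGCC was in the windows of 9 of the 30, including Id2 and Id4 but not Id3, and in 9.59% of all 32851 promoter windows. GTCT was in 24 of the 30, including Id2 and Id3 but not Id4, and in 82.9% of all windows. The 30 were counted as genes, by a match in any of their windows, and the shares of all are of single windows. These units are unlike, and the windows were not matched for GC content. The Id4 window, at chr13:48260866-48261115 on the plus strand, is shown because Id4 had the highest level of the 43 genes; capitals mark its single GGCGCC.
Id4: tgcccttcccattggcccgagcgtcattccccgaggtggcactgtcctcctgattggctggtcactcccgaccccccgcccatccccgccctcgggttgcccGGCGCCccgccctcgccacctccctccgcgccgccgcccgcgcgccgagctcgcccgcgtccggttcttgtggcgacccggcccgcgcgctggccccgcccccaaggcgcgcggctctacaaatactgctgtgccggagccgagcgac
A match describes these letters and is no evidence of binding.

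The replicates differed most in the ligands. Ratios of replicate 2 to replicate 1 were taken on counts scaled by TMM, a trimmed mean over all genes, for the 40 genes with a mean count of at least 200; Gdf6, Gdf7 and Inhba had fewer. In all, 8 of the 40 (20.0%), were at least 2-fold lower in replicate 2, against 3.95% of 14340 genes, and 0 were at least 2-fold higher, against 0.286%. On the log2(TPM + 1) scale, 5 were at least 2-fold lower. The 8 were the ligands Gdf10 (log2 ratio -1.80), Tgfb3 (-1.44), Bmp2 (-1.38), Bmp5 (-1.34), Bmp4 (-1.13) and Tgfb2 (-1.05), the co-receptor Tgfbr3 (-1.32) and Smad9 (-1.13). Tgfb2 lay just inside the 2-fold limit and Bmp3, at -0.99, just outside it. In bulk tissue, fewer cells of a type and less RNA per cell cannot be told apart.

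By role, the median log2 ratio was -1.02 for the 12 ligands, -0.38 for the 6 antagonists, -0.08 for the 8 Smads, 0.0038 for the Id genes and 0.04 for the 10 receptors, against 0.02 for all 14340 genes. Of the 12 ligands, 11 were lower in replicate 2, and so were all 6 antagonists, against 45.5% of all 14340 genes; the antagonists reached -0.88 for Fst and -0.63 for Grem1. Inhbb stood alone among the ligands with a ratio of 0.80, or 1.74-fold higher in replicate 2. Gdf11 (-0.02) and Bmp6 (-0.12) were nearly level. The receptors split 5 and 5, and except for Tgfbr3, Tgfbr2 (-0.80) and Acvr1 (-0.23) they lay between -0.08 and 0.19. Of the Smads, Smad1 (0.02), Smad4 (0.08) and Smad5 (0.14) differed least and Smad9 most. Ratios for the Id genes were -0.29 for Id1 and Id3, 0.30 for Id2 and 0.43 for Id4, each inside the range of -1.30 to 0.47 that held the central 95% of all genes.

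**Figure D2:**
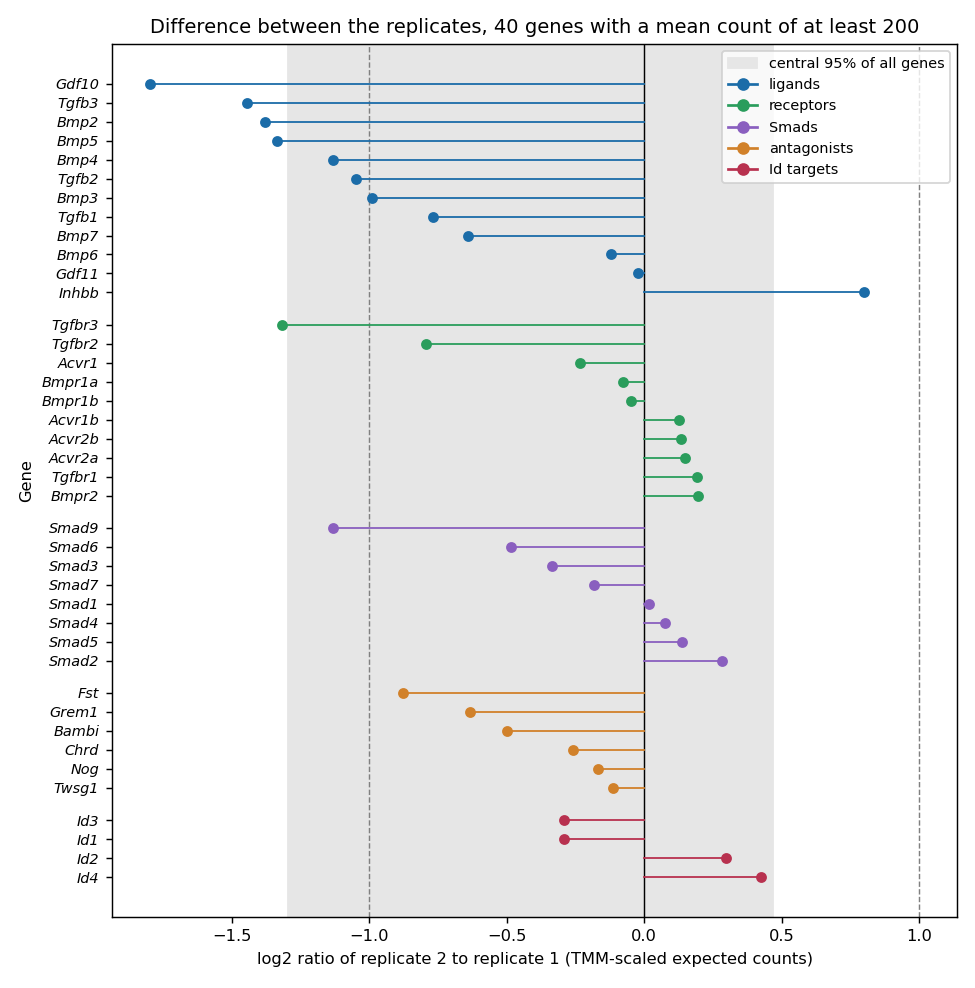
log2 ratio of replicate 2 to replicate 1 for the 40 genes with a mean count of at least 200, coloured by role, with dashed lines at a 2-fold difference and a grey band over the central 95% of all genes. The ligands reach down to -1.80 (Gdf10), while most receptors and Smads lie near 0.

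Marker genes of tissue outside the brain and cord moved in the same direction as the ligands. Of all 14340 genes, 3.95% were at least 2-fold lower in replicate 2. All 10 skeletal muscle markers were at least 2-fold lower in replicate 2 (median log2 ratio -5.54), their sum being 619 and 12.5 TPM. The same held for 8 of 10 cartilage and bone markers (-3.26, 842 and 129 TPM), 9 of the 9 skin markers with enough counts (-2.39, 189 and 27.7 TPM), 6 of 8 markers of peripheral ganglia and Schwann cells (-1.71, 199.8 and 102.6 TPM) and 7 of 10 markers of meninges and fibroblasts (-1.25, 1332 and 557 TPM). Markers of the telencephalon were higher in replicate 2 (median 1.04, 509 and 985 TPM), and so were 6 of 7 cord Hox genes with enough counts (3.13, 30.2 and 106 TPM). Roof plate and cortical hem markers had a median of -0.15 (28.4 and 29.9 TPM), neural progenitor markers of 0.22 (2061 and 2340 TPM) and young neuron markers of 0.06 (3949 and 4240 TPM), and all 16 of the progenitor and neuron markers were detected. The median was 0.51 for choroid plexus, 0.16 for microglia, -0.13 for endothelium and -0.93 for red blood cell markers. No marker in these lists was without counts in both replicates, and Hoxc9 had 0 in replicate 1. No pathway gene of the 43 belongs to these marker lists, and the part of each tissue in the differences was not tested.

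**Figure D3:**
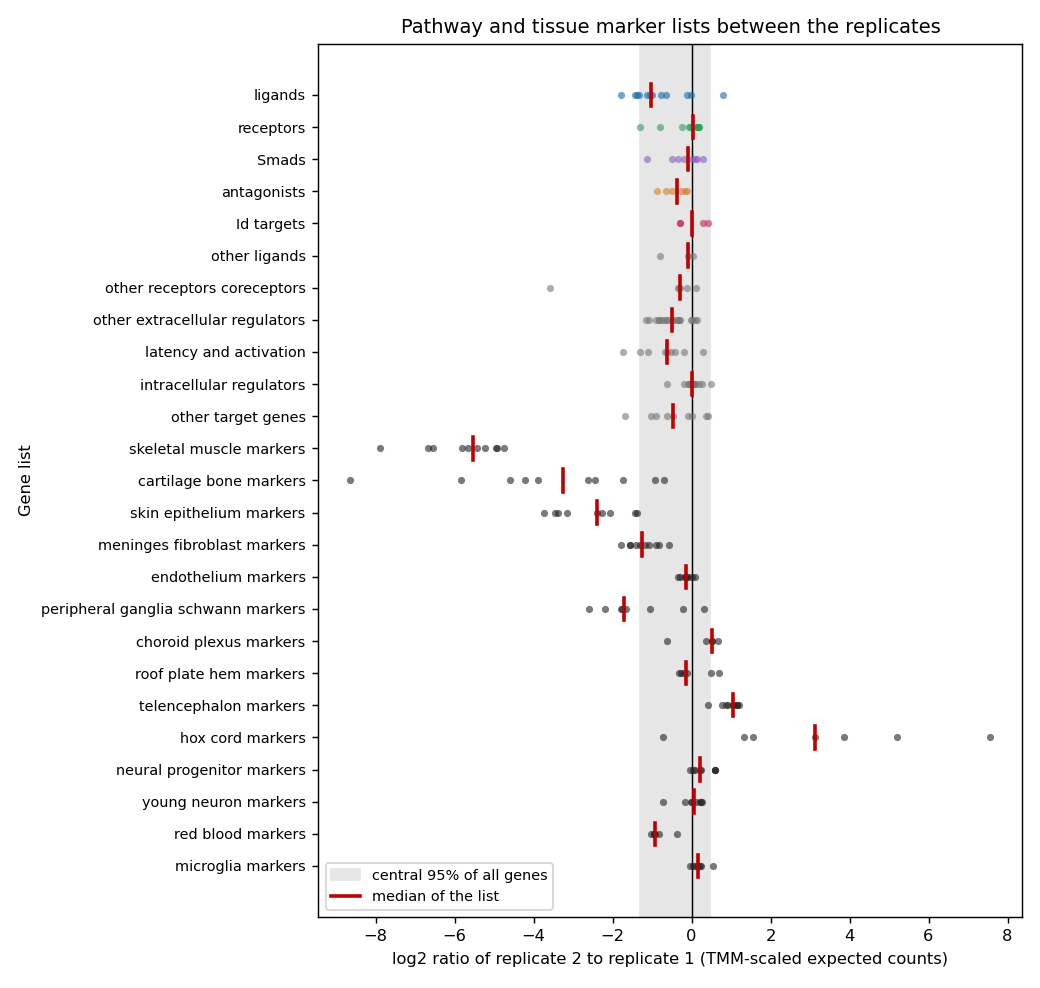
log2 ratio of replicate 2 to replicate 1 for genes with a mean count of at least 200 (points) in the 5 roles, in 6 lists of other pathway genes and in 14 lists of cell type markers; red ticks are list medians and the grey band holds the central 95% of all genes. Skeletal muscle (-5.54) and cartilage (-3.26) markers lie far to the left of the ligands (-1.02), and the telencephalon (1.04) and Hox (3.13) markers to the right.

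Other genes of the pathway, 82 matched of 83 listed, were measured in the same way. Of the 82, 57 reached 1 TPM in both replicates, against 63.4% of 21474 protein-coding genes. Of the 59 with enough counts, 8 were at least 2-fold lower in replicate 2, against 3.95% of 14340 genes. In the other direction, 0 were at least 2-fold higher, against 0.286%. The median log2 ratio was -0.32, against 0.02 for all 14340 genes. Of the remaining ligands, 4 of 17 reached 1 TPM in both replicates; Inha, the inhibin alpha subunit, led with 49.9 and 46.4 TPM, far above Gdf9 (2.02 and 2.22 TPM) and Gdf5 (1.81 and 1.04 TPM). Inhbe had 0 counts in both replicates. Among other receptors and co-receptors, the repulsive guidance molecules Rgmb (89.9 and 82.5 TPM) and Rgma (76.8 and 61.6 TPM), which act as BMP co-receptors, and their receptor Neo1 (48.2 and 51.8 TPM) were highest. Hfe2, hemojuvelin, the member of that family expressed in skeletal muscle and liver, was at 3.46 and 0.280 TPM (log2 ratio -3.59).

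The extracellular regulators were led by Fstl1, a follistatin-like glycoprotein (155 and 71.2 TPM, -1.14), Dcn, encoding the TGF-beta-binding proteoglycan decorin (122 and 68.7 TPM, -0.83), and Bmp1, a protease that cleaves chordin (76.2 and 46.9 TPM, -0.70). With Chrdl1, a chordin-like antagonist (3.94 and 1.82 TPM, -1.08), 2 of the 19 with enough counts were at least 2-fold lower. Dcn is also among the meninges and fibroblast markers used here. Of the genes for TGF-beta latency and activation, Ltbp3 (34.3 and 22.1 TPM) and Ltbp4 (29.2 and 19.8 TPM), encoding latent TGF-beta binding proteins, were highest. At least 2-fold lower were 3 of 9, against 3.95% of 14340 genes: Ltbp2 (-1.72), the activator thrombospondin Thbs1 (-1.31) and Ltbp1 (-1.11). The 13 intracellular regulators were all detected and 0 were 2-fold apart; their median ratio was 0.01, led by the Smad phosphatase Ppm1a (52.4 and 55.4 TPM), the kinase Map3k7 (46.4 and 58.5 TPM) and Zeb2, the Smad-interacting repressor (35.4 and 55.5 TPM). Of other target genes, Ccn2, a matricellular TGF-beta target (31.0 and 9.89 TPM, -1.69), and Atoh8 (4.83 and 2.36 TPM, -1.03) were at least 2-fold lower, while Hey1 (25.9 and 32.5 TPM, 0.41) and Pmepa1, a TGF-beta feedback gene (25.5 and 25.9 TPM, 0.01), were not.

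The deposited transcript tables, which divide each gene's TPM over its annotated transcripts, gave 1 dominant form for most of the 43 genes. The largest transcript by mean share was the one numbered 201 in 38 genes, and Inhba-202, Acvr1-203, Acvr2b-202, Smad1-202 and Smad2-205 in the others. It held at least 90% in both replicates for 32 genes, and it held under 60% in both for Acvr1, Smad2 and Smad4. Acvr1 was divided between Acvr1-203 (37.2% and 43.9%) and Acvr1-204 (30.3% and 33.7%), 2 forms that differ in their first exons, with Acvr1-205 at 21.7% and 13.4%. Smad2-205 held 47.0% and 48.0%, Smad2-203 29.0% and 36.2% and Smad2-207 15.3% and 4.50%. Smad4-201 held 53.4% and 59.95%, and Smad4-204, annotated as not coding, 32.7% and 25.3%. Bmp4 was the single gene whose largest transcript differed between replicates: Bmp4-201 held 39.0% in replicate 1 and 66.3% in replicate 2, and Bmp4-202, which lacks an exon before the start codon, 48.6% and 22.8%. Smad7-202 held 6.54% and 22.5%. Those shifts rest on 1 library each and on a gene with 710 and 431 counts (Bmp4) or 1497 and 1757 counts (Smad7).

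Splicing choices were read from the deposited junction table on mm9, in which the reads of both replicates were summed. Across the 43 genes, 280 of 318 annotated introns had reads, 117049 in all. Enough reads to be compared were found for 9 skipped stretches and 7 pairs of nearby sites. Those in receptors and in Smad2 are described here, and the others lay in Smad4, Chrd and Fst. A skipped stretch of 331 bases in Smad4 is not a single exon, since it spans neighbouring exons of 117 and 120 bases that are also counted singly. In the receptors, the alternatives in Tgfbr2, Tgfbr1, Acvr2b, Acvr2a, Bmpr1a and Bmpr2 had lengths that were multiples of 3, and a 277-base exon of Acvr1 did not. The Acvr1 exon had 92 reads entering and 140 leaving it against 191 that skipped it. Entering reads were 32.5% (exact binomial 95% interval 27.1 to 38.3) of those compared at the upstream site. Leaving reads were 42.3% (36.9 to 47.8) of those compared at the downstream site. The leaving junction is also annotated in Acvr1-203, which lacks the entering one, so 42.3% is not inclusion of this exon alone. In Tgfbr2, a 75-base exon had 82 reads entering and 130 leaving it against 202 that skipped it, so its inclusion was 28.9% (23.7 to 34.5) at the upstream site and 39.2% (33.9 to 44.6) at the downstream one. The transcript tables gave the form with this exon, Tgfbr2-202, 37.6% and 41.4%. In Tgfbr1, an exon began 12 bases earlier in 298 reads and later in 199, which put the longer form at 59.96% (55.5 to 64.3). The transcript tables instead gave Tgfbr1-201, with the 12 bases, 92.6% and 91.3%. In Acvr2b, 387 reads kept 24 bases at the start of an exon and 68 left them out, 85.1% (81.4 to 88.2) against 75.9% and 71.9% for Acvr2b-202 in the transcript tables.

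The 3 stretches are shown because they are the bases by which the receptor forms differ. Capitals mark the bases present in 1 form and absent from the other, and the 18 lower-case bases on each side belong to both. They were read from GENCODE M21 transcripts on mm10, where the Tgfbr2 exon is at chr9:116158271-116158345 on the minus strand, the Tgfbr1 stretch at chr4:47393247-47393258 on the plus strand and the Acvr2b stretch at chr9:119428201-119428224 on the plus strand, all within annotated coding sequence.
Tgfbr2-202: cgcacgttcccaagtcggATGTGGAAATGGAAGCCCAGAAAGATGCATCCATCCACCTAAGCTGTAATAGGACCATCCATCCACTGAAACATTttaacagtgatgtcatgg
Tgfbr1-201: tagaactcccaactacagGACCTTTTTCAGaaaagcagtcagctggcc
Acvr2b-202: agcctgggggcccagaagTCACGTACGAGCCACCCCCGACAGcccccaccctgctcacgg
The transcripts Tgfbr2-201, Tgfbr1-205 and Acvr2b-201 join the flanking bases directly.

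Acvr2a held a short exon whose junctions are in no transcript of the mm9 annotation, and whether GENCODE lists this exon was not tested. On mm9 it lies at chr2:48742194-48742217, is 24 bases long, and had 138 reads entering and 102 leaving it against 628 that skipped it. Inclusion was 18.02% (15.4 to 20.9) at the upstream site and 14.0% (11.5 to 16.7) at the downstream site. In Smad2, a 90-base exon was included in 86.5% (84.1 to 88.7) and 84.9% (82.2 to 87.3) of reads, with 771 entering, 673 leaving and 120 skipping. Its skipping transcript Smad2-203 was given 29.0% and 36.2% by the transcript tables, above the share of skipping junction reads. Shifts of 3 bases were used in Bmpr1a, with 64 and 47 reads on the competing acceptors (42.3% on the longer exon, 33.0 to 52.1), and in Bmpr2, with 293 and 35 reads (89.3% on the longer exon, 85.5 to 92.5).

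**Figure D4:**
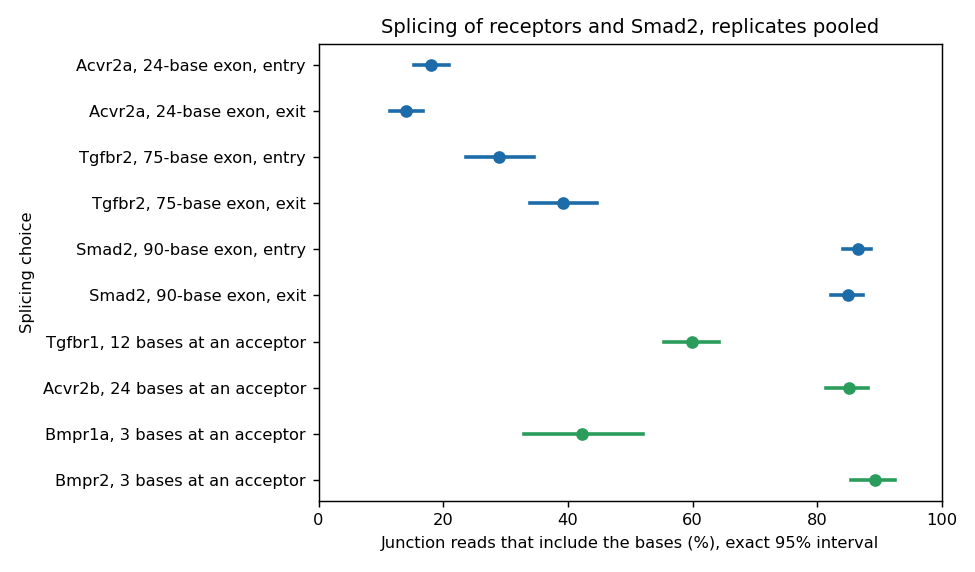
Percent of junction reads that include an alternative exon (blue, at its entry and its exit) or the extra bases at an acceptor (green), with exact 95% binomial intervals; reads of both replicates are summed, so there is no replicate spread. The Smad2 exon and the Acvr2b and Bmpr2 extra bases lie above 80%, and the Acvr2a exon lies below 20%.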

How the data were processed

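Poly(A)+ RNA of 2 biological replicates was measured. Per the text deposited with the tables, genes were quantified on mm10 with GENCODE M4; for the aligner and quantifier, names are not given in the sources used. The deposited values are expected counts, which are estimates and were rounded for scaling, TPM, FPKM (used as an alternative) and, for transcripts, the percent of a gene's TPM. On mm9 (Ensembl 65), the authors deposited a read count per junction, pooled over both replicates, and RPKM in 2 fields that no label ties to a replicate, so their mean was used.

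Symbols and positions came from GENCODE M21 by stable identifier. Genes at 1 TPM were called detected; medians were compared on log2(TPM + 1), which understates differences of low genes. Replicates were compared with TMM scaling in edgeR 4.0.16 (R 4.3.3, prior count of 1), after a check on simulated counts; DESeq2 1.42.0 gave alternative size factors. With 1 library per replicate there is no p-value. Marker and pathway lists and the 43 genes were chosen with earlier results of these data known. All 43 are named; of each pathway list the text names the 3 with the highest mean TPM and those at least 2-fold apart with a mean count of at least 200, and of transcripts the largest of each gene and the genes whose largest held under 60% in both replicates; the other transcripts, splicing choices, Inhbe and Hoxc9 were chosen after their values were seen. Exons were listed as alternative with at least 50 reads on each inclusion junction, and sites up to 30 bases apart with at least 10 reads on the less used one, each form holding at least 5%. Intervals are exact 95% intervals; they and the floor of 3 counts (0.0301 and 0.0223 CPM) cover counting error only. The libraries are stranded per the labels; whether counting used strand is not given.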

Additional observations from a re-analysis of the deposited data

How the results depend on the processing

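Of 83 alternative values, 73 stayed within the spread between replicates (for counts, within 1.5 times; for median log2 ratios, within 0.146, the median absolute log2 ratio of all genes). With 2 replicates, each value lies closer to their mean than the SD. Leaving out 1 replicate therefore could not move a group difference by this rule, and those values, counted among the 73, say nothing on stability. TMM-scaled CPM, which does not correct for length, moved the receptor difference from 1.65 to 2.44 and the Id difference from 4.53 to 3.19. The mm9 RPKM, with the same 1 added to lower values, gave 0.68 for receptors, 1.29 for Smads and 3.21 for Id genes. Means in place of medians gave 1.67 for Smads and 0.73 for antagonists. Leaving out members with a mean count under 200, an alternative chosen after seeing the data, turned the antagonist difference to -0.065. The log2(TPM + 1) scale gave 5 rather than 8 members at least 2-fold lower and a ligand median of -0.74, and members filtered only at 10 counts gave 11. Leaving out 1 replicate gave 1.33 to 1.97 for receptors, 1.95 to 2.64 for Smads, 0.06 to 0.45 for antagonists, 4.09 to 4.96 for Id genes, and 38 to 41 detected members. The median ratio of the Id genes changed sign under total-count scaling (-0.02) and on the log2(TPM + 1) scale (-0.0032). The cause of these shifts was not tested, beyond what each alternative changes by its construction. No paired analysis was possible because there is 1 group. With 1 library per replicate, a ratio has no error of its own.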

Other observations

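Junctions outside the annotated introns, with at least 10 reads each, numbered 41 across the 43 genes and are given as values only. Bmpr2 held the one with the most reads, 634, and it had the length of an annotated intron shifted by 2 bases. Acvr2a held 4 with 266 reads, among them those of the 24-base exon. Bmp7 held 10 with 263 reads, the highest of which had 62 and the shortest of which spanned 64 bases. Chrd held 8 with 196 reads, Smad4 3 with 170 reads and Id1 3 with 136 reads. In Twsg1, 1 such junction had 75 reads. Their source was not tested.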
